A study of Mus musculus with 18 samples.

Results

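Lysosomal enzyme and membrane genes were followed through poly(A) RNA sequencing of 4T1, a transplantable mammary carcinoma line of the mouse. The group holds 36 genes chosen by symbol, and all 36 were found among the 34591 gene symbols of the count tables. By role they are 9 cysteine cathepsins, 3 other proteases, 8 glycosidases, 7 proteins of lipid degradation and transport, 8 membrane proteins and 1 transcription factor, Tfeb. Tfeb is neither an enzyme nor a membrane protein, and its transcript is described for itself.

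The study asked what TGFb1, and the secreted matricellular protein Wisp1, changed in these cells. Of 6 groups of 3 libraries, the untreated group was parental cells in fresh RPMI medium, with RNA taken after 24 h. The TGFb1 group was parental cells in the same medium with 2 ng/mL recombinant human TGFb1 for 24 h. The remaining 4 groups came from a pair of stable lines made with lentivirus and puromycin selection, an empty vector line (EV) and a line overexpressing Wisp1. Each line was grown, below confluence, on tissue-culture plastic and on plastic coated with collagen type I. Each vector is represented by a single stable line, and nothing in the labels says that replicates came from separate transductions, so p-values measure the spread between cultures.

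Lysosomes are acidic compartments where proteins, glycans and lipids delivered by endocytosis, phagocytosis and autophagy are broken down. Soluble hydrolases are mostly sorted there from the Golgi by mannose 6-phosphate tags, while heavily glycosylated membrane proteins line the limiting membrane. TFEB and the related MiT/TFE factors bind E-box motifs in promoters of many lysosomal genes, and cathepsins released by carcinoma cells are known to cut matrix proteins.

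Gene counts per library ran from 37.55 M to 94.4 M, with 67.64 M to 85.43 M in the parental groups (M, 1e6 counts). Wisp1 was at 897 to 1120 CPM (counts per 1e6, scaled between libraries) in the Wisp1 line against 14.1 to 72.1 in EV, and at 288 to 611 with TGFb1 against 9.16 to 39.7 in untreated cells. All 6 mammary epithelial markers were detected in every group, with a summed level between 2710 and 3960 CPM. In bulk RNA, fewer cells of a type and less RNA per cell cannot be told apart.

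The promoters of these genes are shown first, because E-box matches were counted among the members that moved together. The RefSeq promoter table (GRCm38.p6, 250 bases before to 50 after a transcript start) matched 31 of the 36 members, leaving out Ctsb, Ctsh, Ctsw, Npc1 and Asah1. The E-box core CACGTG, which reads the same on both strands, was found in 10 of the 31 (32.3%), against 8.09% of 27025 genes with a promoter and 11.9% of 8905 such genes tested in the stable lines. The longer TCACGTG, on either strand, was in 8 of 31 (25.8%), against 4.29% and 7.01%. The longer motif contains the core, so these counts overlap, and a match is a description of letters and not a bound site.

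The 8 promoters with the longer motif are printed below around the longest motif found, taking the one nearest upstream of the start, 5′ to 3′ on the strand of the gene, with each E-box core in capitals. Windows are 60 bases, or 30 where the longer one would overlap an annotated exon. They lie at chr7:142387908-142387937 (minus strand, Ctsd), chr2:164833743-164833772 (plus, Ctsa), chrX:134601182-134601211 (minus, Gla), chr9:114401002-114401061 (plus, Glb1), chr11:119267795-119267854 (plus, Gaa), chr8:13159101-13159160 (plus, Lamp1), chr7:126583340-126583369 (minus, Cln3) and chr8:3500462-3500491 (plus, Mcoln1) in GRCm38.p6.
Ctsd: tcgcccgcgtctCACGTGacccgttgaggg
Ctsa: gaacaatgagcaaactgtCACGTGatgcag
Gla: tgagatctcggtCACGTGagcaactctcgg
Glb1: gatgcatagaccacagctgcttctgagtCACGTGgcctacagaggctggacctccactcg
Gaa: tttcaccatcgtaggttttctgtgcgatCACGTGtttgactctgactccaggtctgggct
Lamp1: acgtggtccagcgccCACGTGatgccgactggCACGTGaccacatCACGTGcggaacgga
Cln3: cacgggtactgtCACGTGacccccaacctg
Mcoln1: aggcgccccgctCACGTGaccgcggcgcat
The Lamp1 window holds 3 cores within 60 bases, and the whole Lamp1 promoter holds 4. Ctsd, Ctsa, Gla, Cln3 and Mcoln1 hold 2 cores each, and Ctsl and Ctsf hold the core without the flanking base.

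**Figure D1:**
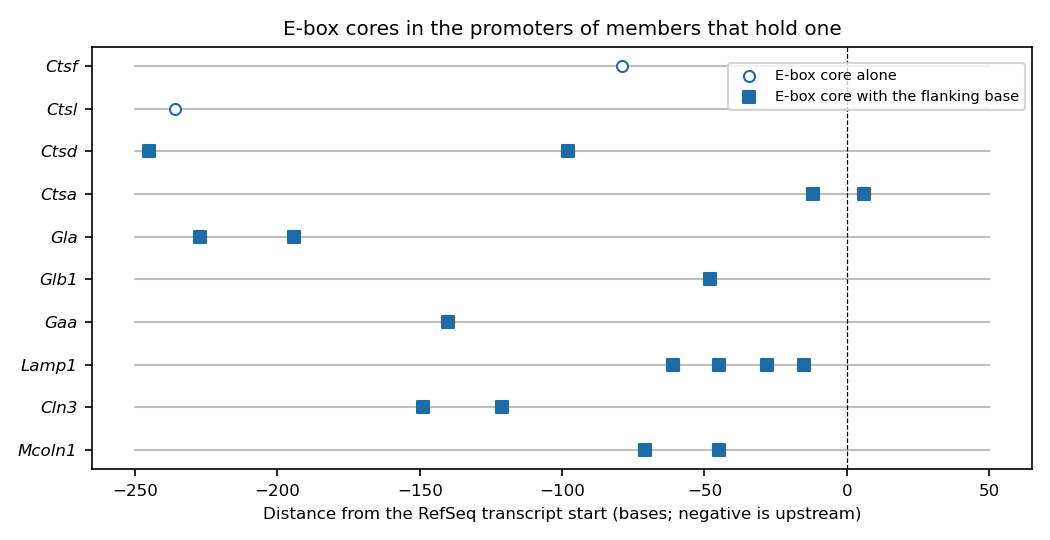
Positions of E-box cores in the 10 member promoters that hold one, as distance in bases from the RefSeq transcript start (x axis), 1 row per gene. Filled squares carry the flanking base of the longer motif and open circles (Ctsf, Ctsl) do not; the 4 cores of Lamp1 lie within 61 bases upstream of its start.

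Levels differed widely between members. Per kilobase of exon (exon lengths from GENCODE M21 on GRCm38, as a mean over the 6 groups), Lamp1 was highest at 274 CPM per kb, followed by the tetraspanin gene Cd63 at 245, the saposin precursor gene Psap at 176, Ctsl at 168 and Ctsd at 140. Tfeb was at 1.19, Ctss at 0.821 and Ctsf at 0.00348 CPM per kb. Ctsf, a cysteine cathepsin, had 0 to 2 counts in each library and was too low to test anywhere. Summed over all 36 members, the level was 5799 ± 600 CPM in untreated cells, 5590 ± 440 with TGFb1, 3875 ± 58 in EV and 3858 ± 160 in Wisp1 on plastic, and 4767 ± 180 in EV and 4932 ± 340 in Wisp1 on collagen (mean ± SD, n = 3). Of 35 members, leaving out Ctsf, 22 had their highest group mean with TGFb1 and 6 in untreated cells. The lowest group mean was in Wisp1 cells on plastic for 16 and in EV cells on plastic for 9. Replicates were closer in the stable lines than in parental cells: the median SD over members on the log2 scale was 0.06 to 0.10 in the 4 stable groups and 0.17 and 0.22 in untreated and TGFb1 cells.

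**Figure D2:**
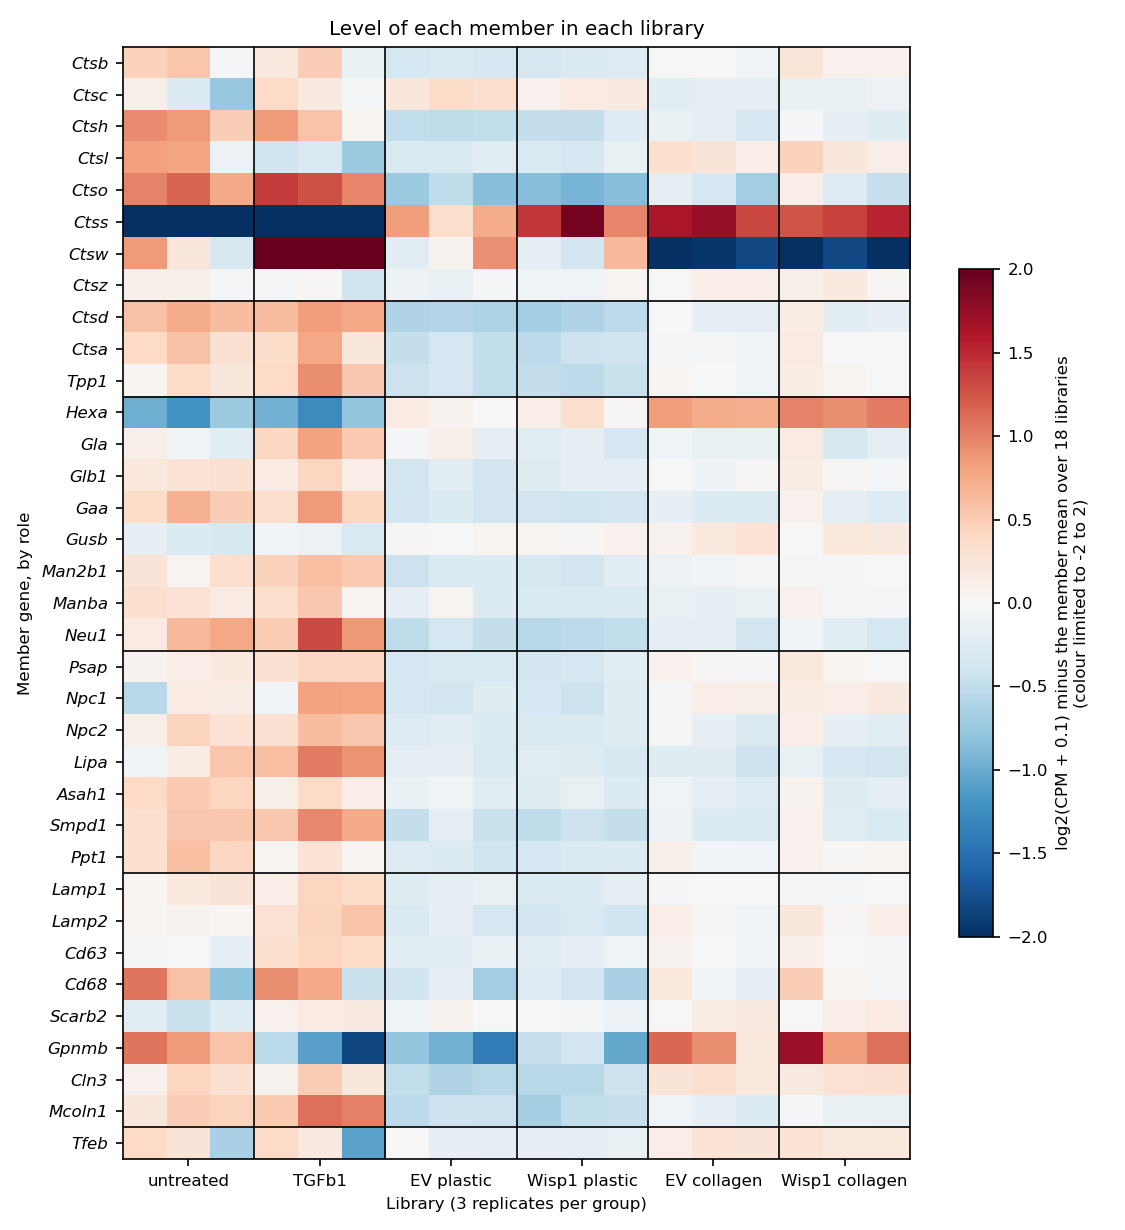
Level of 35 members (rows, grouped by role) in each of the 18 libraries (columns, 3 per group), as log2(CPM + 0.1) minus the mean of that member over all libraries. Most rows are red (above their mean) in parental cells, blue on plastic and near white on collagen; Hexa and Ctss are instead lowest in parental cells, and Ctsw is red with TGFb1 and deep blue on collagen.

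The clearest change of the group was between substrates. On collagen type I, most lysosomal genes were higher than on plastic in both stable lines, among them the cathepsin genes Ctsl, Ctsd and Ctsb, the membrane protein genes Cln3, Gpnmb and Lamp1, and Hexa. In EV, 25 of 35 tested members were called (an adjusted p under 0.05, edgeR's quasi-likelihood test with Benjamini-Hochberg adjustment over all genes tested), 23 higher and 2 lower, against 36.5% of all 13953 genes tested (19.2% called higher and 17.3% lower). In Wisp1 cells 30 of 35 were called, 28 higher and 2 lower, against 40.4% of all genes (21.3% higher, 19.1% lower). The median log2 change of the members was 0.31 in EV and 0.35 in Wisp1 cells, and that of all genes 0.00 and 0.01. Most rises were small: called rises ran from 1.14-fold to 3.67-fold in EV, with a median of 1.26-fold, and from 1.13-fold to 3.81-fold in Wisp1 cells, with a median of 1.34-fold.

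Of the 35 members, 21 were called higher in both lines (60%, against 15.6% of all genes tested) and 2, Ctsc and Ctsw, lower in both (5.71%, against 13.7%). The lines are separate cultures with separate plastic controls, though they share the fit and its estimate of spread. Cultures of the same number in EV and Wisp1 deviated together on plastic (correlations 0.25 to 0.41) and on collagen (0.35 to 0.69). Codes in the sample titles are adjacent for both plastic groups and, further on, for both collagen groups. Substrate and any library series that went with it therefore cannot be told apart in either line. A further 2 members were called higher in EV alone (Ctss, Gusb) and 7 in Wisp1 alone (Ctso, Gaa, Manba, Npc2, Smpd1, Cd68, Scarb2), and the difference between the lines was not called for any of them (adjusted p = 0.97 or above). Asah1, Gla and Lipa were called in neither. Groups did not overlap for 22 members above and 2 below in EV, against 48% of all genes in either direction, and for 26 above and 2 below in Wisp1 cells, against 51.5%.

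**Figure D3:**
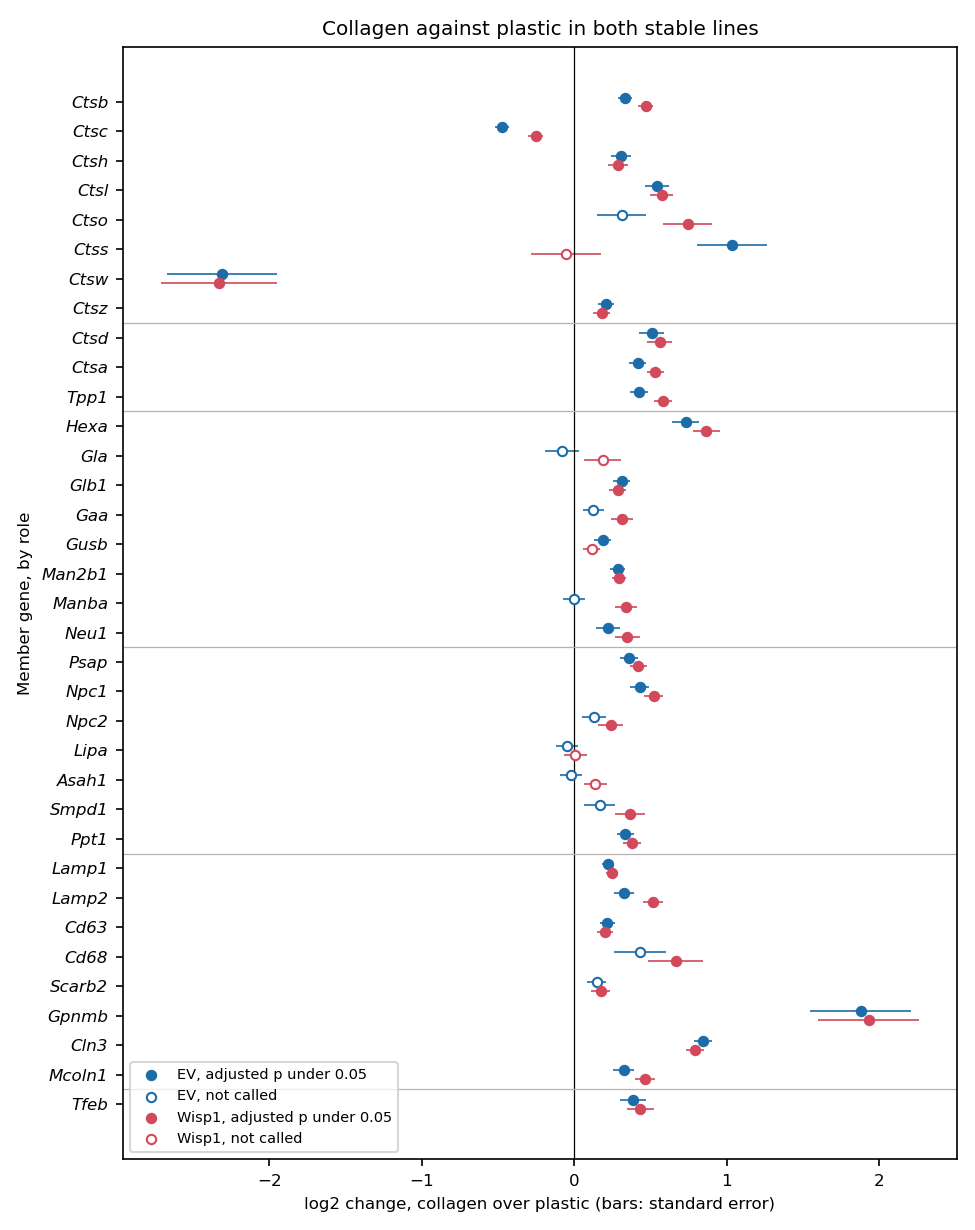
Log2 change on collagen over plastic (x axis) for 35 members in the EV line (blue) and the Wisp1 line (red), with bars for the standard error. Filled points have an adjusted p under 0.05; nearly all lie to the right of 0, with Gpnmb highest and Ctsw and Ctsc on the left in both lines.

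Among cysteine cathepsins, Ctsl encodes the endopeptidase with the highest level of its family here. In EV it was at 819, 812 and 851 CPM on plastic and 1260, 1190 and 1100 on collagen (log2 change 0.54 ± 0.076 SE, adjusted p = 0.00011). In Wisp1 cells it was at 809, 786 and 895 CPM on plastic and 1370, 1160 and 1100 on collagen (log2 change 0.57 ± 0.076, adjusted p = 6.6e-05). All 6 collagen libraries lay above all 6 plastic libraries. The placental cathepsin genes next to Ctsl, its closest paralogs, were read together with Tpbpa and Tpbpb, which are not cathepsins. All 11 genes of that list had fewer than 10 counts in every library.

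Ctsb, which cuts both inside chains and from their ends, rose in EV from 234, 243 and 236 CPM to 298, 300 and 282 (log2 change 0.33, adjusted p = 0.00011). In Wisp1 cells Ctsb rose from 237, 243 and 249 to 354, 318 and 317 CPM (log2 change 0.47, adjusted p = 6e-06). The aminopeptidase gene Ctsh went from 83.6, 82.6 and 83.4 to 107, 103 and 93 CPM in EV and from 84.3, 84.6 and 97.7 to 115, 105 and 99.2 in Wisp1 cells, rises of 1.24-fold and 1.22-fold. The carboxypeptidase gene Ctsz had 137, 133 and 145 CPM on plastic and 148, 161 and 161 on collagen in EV, a rise of 1.15-fold. In Wisp1 cells Ctsz had 138, 140 and 153 CPM on plastic and 160, 169 and 150 on collagen, a rise of 1.13-fold in which the groups overlapped. Ctso, a broadly expressed cathepsin at a low level, was at 7.06, 8.32 and 6.55 CPM on plastic and 10.4, 9.27 and 7.3 on collagen in EV, where it was not called. It rose in Wisp1 cells, from 6.57, 6.18 and 6.58 to 13.1, 9.9 and 8.59 CPM (log2 change 0.74 ± 0.16, adjusted p = 0.0029).

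A pair of cysteine cathepsins fell on collagen. Ctsw, a cathepsin best known from cytotoxic lymphocytes, was at 10.5, 12.9 and 23.4 CPM on plastic and 2.62, 3.12 and 3.45 on collagen in EV (log2 change −2.31 ± 0.36, adjusted p = 0.00082). Wisp1 cells had 10.9, 9.51 and 19.5 CPM on plastic and 2.48, 3.47 and 1.93 on collagen (log2 change −2.33 ± 0.38, adjusted p = 0.00091), so Ctsw fell 4.95-fold and 5.03-fold. The 10 T and NK cell markers looked at beside it had 0 to 3 counts per library, and 5 of them had no count anywhere. Ctsc, the dipeptidyl peptidase that activates granule proteases, fell in EV from 30.8, 34.3 and 33.1 to 22.8, 23.3 and 23.3 CPM (log2 change −0.47, adjusted p = 5.9e-06). In Wisp1 cells it fell from 28.1, 29.6 and 30 to 24, 23.8 and 24.4 CPM (log2 change −0.25, adjusted p = 0.001). For both genes the collagen libraries lay below the plastic libraries in each line.

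Ctss, the cathepsin of antigen-presenting cells, was low throughout the stable lines. EV libraries had 48, 62 and 56 counts on plastic and 116, 150 and 157 on collagen, or 1.16, 0.805 and 1.08 CPM on plastic and 2.08, 2.26 and 1.68 on collagen, a rise of 2.04-fold (adjusted p = 0.0033). Wisp1 libraries had 1.77, 2.57 and 1.28 CPM on plastic and 1.59, 1.72 and 1.93 on collagen, and those groups overlapped (log2 change −0.05, adjusted p = 0.87). The difference between the lines was −1.09 on the log2 scale with an unadjusted p of 0.0048 and an adjusted p of 0.97. Markers of macrophages were read beside Ctss, and 10 of 12 leukocyte and macrophage markers were tested. In EV 2 were called higher on collagen (Emr1 2.69-fold and Tyrobp 2.13-fold), against 36.5% of all genes called in either direction. In Wisp1 cells 1 was called higher (Cd14 1.22-fold), against 40.4%. Without Cd14, the summed level of the remaining 11 was 5.63 to 8.02 CPM in EV and 7.21 to 12.6 in Wisp1 cells on plastic, and 8.4 to 14.6 and 7.86 to 19.4 on collagen. With Cd14, the sum over the 12 was 12.8 and 17.1 CPM on plastic and 18.6 and 22.1 on collagen (group means). The part of these markers in the level of Ctss was not tested.

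All 3 other proteases rose in both lines, without overlap between substrates. Of all genes, 36.5% were called in EV and 40.4% in Wisp1 cells, and groups did not overlap for 48% and 51.5%. Ctsd, the main aspartic protease of the lysosome, was at 183, 185 and 182 CPM on plastic and 277, 248 and 242 on collagen in EV (log2 change 0.51 ± 0.082, adjusted p = 0.00041). Wisp1 cells had 174, 184 and 194 CPM of Ctsd on plastic and 310, 241 and 247 on collagen (log2 change 0.56 ± 0.082, adjusted p = 0.00018). Ctsa, the protective carboxypeptidase that keeps beta-galactosidase and the sialidase Neu1 stable, rose from 49.7, 54.1 and 48.7 to 66.8, 67.5 and 65.3 CPM in EV and from 47.7, 51.8 and 52.1 to 77, 69 and 68.8 in Wisp1 cells. Those are rises of 1.33-fold and 1.44-fold. The tripeptidyl peptidase gene Tpp1 rose from 28.9, 30.9 and 27.5 to 39.7, 38.9 and 36.4 CPM and from 27.8, 27.1 and 28.5 to 43.2, 40.3 and 39.1, or 1.34-fold and 1.5-fold.

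Of 8 glycosidases, 5 rose in EV (62.5%, against 36.5% of all genes called) and 6 in Wisp1 cells (75%, against 40.4%), and none fell. Hexa, the alpha subunit of beta-hexosaminidase, changed most: it was at 5.59, 5.23 and 4.99 CPM on plastic and 8.99, 8.46 and 8.29 on collagen in EV (log2 change 0.73 ± 0.088, adjusted p = 3e-05). In Wisp1 cells Hexa was at 5.51, 6.26 and 5.07 CPM on plastic and 10, 9.57 and 10.3 on collagen (log2 change 0.86 ± 0.089, adjusted p = 7.9e-06). Every collagen library was above every plastic library. Glb1, the beta-galactosidase, rose from 45, 50.7 and 45.4 to 57.8, 54.5 and 59.5 CPM in EV and from 49.2, 51.4 and 51 to 64.4, 59.4 and 57.2 in Wisp1 cells (1.24-fold and 1.22-fold). Man2b1, which trims alpha-mannose, rose from 46, 50.3 and 51.1 to 56.9, 59.2 and 60.2 CPM and from 49.4, 47.6 and 53.3 to 59.8, 60 and 61.1 (1.22-fold and 1.23-fold). The sialidase gene Neu1 rose from 10.7, 11.9 and 10.9 to 13.4, 13.4 and 11.8 CPM in EV, with overlap, and from 10.4, 10.6 and 10.8 to 14.7, 13 and 12 in Wisp1 cells (1.17-fold and 1.27-fold).

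The beta-glucuronidase gene Gusb had 175, 173 and 179 CPM on plastic and 181, 198 and 211 on collagen in EV, a rise of 1.14-fold, and was not called in Wisp1 cells (179, 174 and 183 CPM on plastic and 173, 200 and 196 on collagen, adjusted p = 0.13). Gaa, the acid alpha-glucosidase that degrades glycogen, had 53.2, 56.6 and 53.1 CPM on plastic and 61.2, 56.9 and 56.5 on collagen in EV (adjusted p = 0.18) and rose from 52.7, 51.7 and 52.9 to 72.9, 60.7 and 57.6 in Wisp1 cells (1.24-fold). Manba, the beta-mannosidase, had 24.2, 28.4 and 22.6 CPM on plastic and 24.8, 24.4 and 24.8 on collagen in EV (adjusted p = 0.99) and rose from 22.3, 22.2 and 22.4 to 29.2, 27 and 26.9 in Wisp1 cells (1.27-fold). Gla, the alpha-galactosidase, was between 7.32 and 10.4 CPM in all 12 stable-line libraries and its groups overlapped in both lines (adjusted p = 0.6 and 0.22).

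Among the 7 genes of lipid degradation and transport, 3 rose in EV and 5 in Wisp1 cells. That is 42.9% in EV, near the 36.5% of all genes called, and 71.4% in Wisp1 cells, against 40.4%. Psap, the precursor of the saposins that present sphingolipids to hydrolases, rose from 375, 388 and 383 to 501, 481 and 461 CPM in EV and from 368, 375 and 412 to 552, 489 and 475 in Wisp1 cells (1.28-fold and 1.34-fold). Npc1, the membrane protein that exports cholesterol, rose from 16.7, 16.5 and 17.9 to 20.8, 23.5 and 23.1 CPM and from 16.8, 15.7 and 17.9 to 23.6, 23.4 and 24.2 (1.35-fold and 1.43-fold). Its soluble partner gene Npc2 had 176, 181 and 172 CPM on plastic and 206, 188 and 173 on collagen in EV (adjusted p = 0.23) and rose from 172, 172 and 177 to 232, 189 and 183 in Wisp1 cells (1.18-fold). The palmitoyl-protein thioesterase gene Ppt1 rose from 51.3, 50.5 and 46.2 to 66.2, 59.2 and 58 CPM and from 48.2, 49.9 and 50.7 to 64.7, 61.9 and 63.4 (1.26-fold and 1.3-fold). Smpd1, the acid sphingomyelinase, had 12.4, 15.1 and 12.7 CPM on plastic and 16, 14.4 and 14.2 on collagen in EV (adjusted p = 0.21) and rose from 12.2, 13 and 12.4 to 18.4, 14.8 and 14.1 in Wisp1 cells (1.29-fold). The acid lipase gene Lipa (log2 change −0.05 ± 0.072 and 0.01 ± 0.074) and the acid ceramidase gene Asah1 (−0.02 ± 0.074 and 0.14 ± 0.075) were not called in EV or Wisp1 cells.

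Of the 8 membrane protein genes, 6 rose in EV and all 8 in Wisp1 cells, where the call of Scarb2 ended under 9 of 15 alternatives. Of all genes, 36.5% were called in EV and 40.4% in Wisp1 cells. Gpnmb, a transmembrane glycoprotein of melanosomes and lysosomes, had the largest fold of any member called higher: it was at 6.91, 6.05 and 4.43 CPM on plastic and 26.4, 22.7 and 13.7 on collagen in EV (log2 change 1.88 ± 0.33, adjusted p = 0.0017). In Wisp1 cells Gpnmb was at 8.56, 9.1 and 5.76 CPM on plastic and 39.1, 21.2 and 25.6 on collagen (log2 change 1.93 ± 0.33, adjusted p = 0.0012). The collagen libraries varied widely, yet each lay above the plastic libraries of its line. Cln3, a membrane protein lost in a juvenile neuronal storage disease, had the smallest p-values of the group. It was at 22.3, 20.6 and 21.3 CPM on plastic and 37.7, 39.3 and 35.8 on collagen in EV (log2 change 0.84 ± 0.06, adjusted p = 3e-07). Wisp1 cells had 21.4, 21.2 and 23.6 CPM on plastic and 35.5, 38.2 and 38.9 on collagen of Cln3 (log2 change 0.79 ± 0.061, adjusted p = 6.4e-07). The Cln3 promoter, printed above, holds 2 E-box cores, as does that of Gla, which was called in neither line. A link between motif and change was not tested.

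Lamp1, a major glycoprotein of the lysosomal membrane, rose from 509, 532 and 547 to 595, 612 and 607 CPM in EV and from 498, 499 and 534 to 590, 591 and 600 in Wisp1 cells (1.16-fold and 1.19-fold). Lamp2, its relative with a role in autophagosome fusion, rose from 146, 160 and 141 to 196, 183 and 171 CPM and from 138, 145 and 135 to 210, 182 and 196 (1.25-fold and 1.43-fold). Cd63 rose from 302, 305 and 320 to 370, 353 and 335 CPM and from 304, 311 and 333 to 378, 350 and 342 (1.16-fold and 1.15-fold). The calcium channel gene Mcoln1 rose from 20.2, 21.8 and 21.5 to 27.7, 26.1 and 24.2 CPM and from 18.4, 20.6 and 21.2 to 28.7, 26.5 and 26.4 (1.25-fold and 1.38-fold). Cd68, a LAMP-family protein abundant in macrophages, had 4.07, 4.8 and 3.3 CPM on plastic and 6.3, 5.24 and 4.76 on collagen in EV (adjusted p = 0.067) and rose from 4.5, 4.13 and 3.44 to 7.67, 5.56 and 5.27 in Wisp1 cells (1.59-fold). Scarb2, the receptor that carries glucocerebrosidase to lysosomes, had 30.2, 33.4 and 31.6 CPM on plastic and 32.1, 35.3 and 36 on collagen in EV (adjusted p = 0.079) and rose from 32.1, 31 and 29.5 to 31.7, 35 and 35.7 in Wisp1 cells, with overlap (1.13-fold).

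Tfeb itself, at a low level, rose on collagen from 4.6, 4.13 and 4.04 to 5.1, 5.63 and 5.55 CPM in EV (log2 change 0.38 ± 0.085, adjusted p = 0.003). In Wisp1 cells it rose from 4.11, 4.07 and 4.16 to 5.6, 5.36 and 5.35 CPM (log2 change 0.43 ± 0.088, adjusted p = 0.0015), and the substrates did not overlap in either line. The E-box core stood in the promoters of 7 of 18 members called higher on collagen in both lines (38.9%) and in 3 of 13 of the remaining members with a promoter (23.1%). Those 3 were Ctsf, too low to test, Gaa, called higher in Wisp1 cells, and Gla. The remaining members are thus not a set without change, and a link between motif and change was not tested.

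With all 18 libraries in one fit, which takes its spread from the parental cells as well, 14 members were called in EV (12 higher and 2 lower, against 10.8% of all genes) and 15 in Wisp1 cells (14 higher and 1 lower, against 13.8%). The 11 calls lost in EV were Ctsb (adjusted p = 0.19), Ctsh (0.28), Ctsl (0.082), Ctsz (0.23), Gusb (0.2), Neu1 (0.54), Npc1 (0.23), Lamp1 (0.097), Cd63 (0.063), Mcoln1 (0.14) and Tfeb (0.51). The 15 lost in Wisp1 cells were Ctsc (adjusted p = 0.26), Ctsh (0.3), Ctsl (0.056), Ctsz (0.3), Gaa (0.14), Manba (0.065), Neu1 (0.26), Npc1 (0.11), Npc2 (0.19), Smpd1 (0.09), Lamp1 (0.051), Cd63 (0.076), Cd68 (0.33), Scarb2 (0.25) and Tfeb (0.41). Apart from this fit and from leaving out libraries, Neu1 in EV was lost with limma-voom (adjusted p = 0.074), with no filter (0.052) and with the 6 libraries compared alone (0.055). Scarb2 in Wisp1 cells was lost with RLE scaling (0.051), limma-voom (0.053), the replicate block within each line (0.055) and the 6 libraries compared alone (0.06). Calls that ended without 1 library were Gusb in EV (without plastic replicate 1, adjusted p = 0.052, or 2, 0.065, or collagen replicate 2, 0.062, or 3, 0.089) and Neu1 in EV (without plastic replicate 1, 0.13, or 3, 0.12, or collagen replicate 1, 0.13, or 2, 0.15). In Wisp1 cells they were Ctsz (without plastic replicate 1, 0.069, or 2, 0.063, or collagen replicate 2, 0.073), Npc2 (without plastic replicate 1, 0.076, 2, 0.077, or 3, 0.057, or collagen replicate 1, 0.12), Smpd1 (without collagen replicate 1, 0.06) and Scarb2 (without plastic replicate 2, 0.083, or 3, 0.15, or collagen replicate 2, 0.11, or 3, 0.13).

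**Figure D4:**
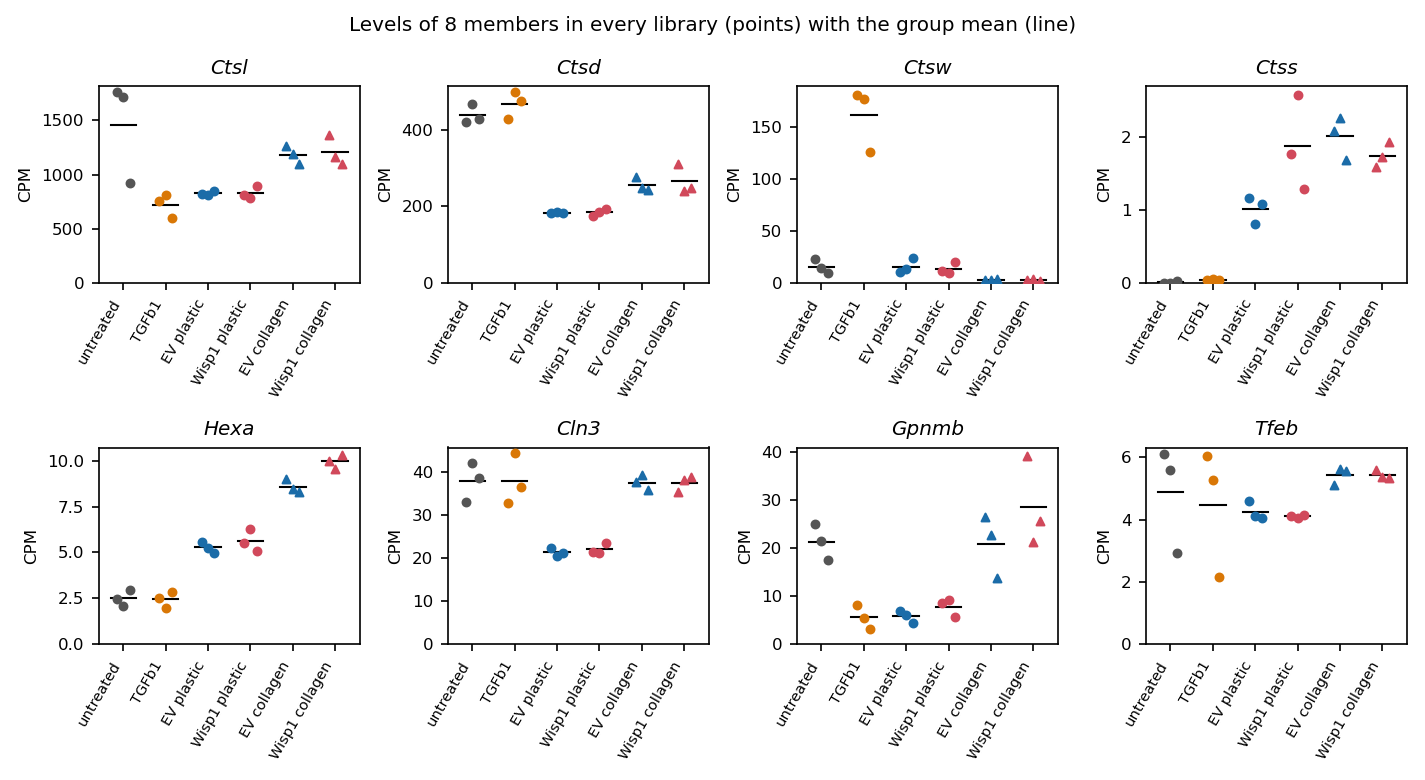
CPM (y axis, from 0) of 8 members in each of the 18 libraries, by group (x axis); circles are parental cells and cells on plastic, triangles cells on collagen, and black lines the means of 3 libraries. Ctsl, Ctsd, Hexa, Cln3, Gpnmb and Tfeb are higher on collagen than on plastic in both lines, Ctsw is highest with TGFb1 (126 to 180 CPM), and Ctss is near 0 in parental cells.

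Other lysosomal genes were read alongside the members. Of 26 further hydrolases and activators tested, 14 rose and 1 fell on collagen in EV (median log2 change 0.20) and 17 rose and 1 fell in Wisp1 cells (0.30). The gene that fell was Lgmn, the asparaginyl endopeptidase that processes cathepsins, which was 1.63-fold and 1.49-fold lower, while the heparan sulfatase gene Sgsh rose 1.49-fold and 1.59-fold. Of 5 cathepsin inhibitor genes tested, Cst3, Cst6, Cstb and Serpinb6a rose in both lines, with cystatin C (Cst3) going from 73.5 ± 2.1 to 126 ± 8.7 CPM in EV and from 75.7 ± 5.1 to 132 ± 20 in Wisp1 cells. The remaining one, Csta, reached the test through groups where it is higher and rests on 0 to 18 counts per library, with 1 to 7 on plastic and 9 to 15 on collagen in EV and 0 to 1 and 2 to 18 in Wisp1 cells. Of 14 genes of MiT/TFE factors and lysosomal mTORC1 regulation, 8 rose in EV (median 0.16), and 8 rose and 1 fell in Wisp1 cells (0.20). Mitf, a relative of Tfeb, rose 1.87-fold and 1.84-fold, and Flcn, a regulator of these factors, 1.3-fold and 1.32-fold. Of 17 V-ATPase genes, whose products acidify the lysosome, 6 and 8 rose and none fell (medians 0.10 and 0.18), including Atp6v0b 1.37-fold and 1.46-fold. Of 9 mannose 6-phosphate sorting genes 5 and 4 rose (0.19 and 0.10), and of 18 further lysosomal membrane proteins 9 and 10 (0.15 and 0.19). The shares called in these lists read against the 36.5% and 40.4% of all genes given above.

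Treatment of parental cells with TGFb1 was compared next. The first fit used groups only and left out the pairing of cultures described below, with which 22 of 34 members were called. Without the pairing, a large rise of Ctsw, a fall of Gpnmb and a modest rise of Cd63 were called among 34 tested members, 2 higher and 1 lower (8.82%), against 11.1% of all 14874 genes tested (6.14% called higher and 4.92% lower). The median log2 change of the members was 0.10, against −0.01 for all genes, and 14 of 34 had an unadjusted p under 0.05, against 24.9% of all genes. Groups did not overlap for 10 members above and 4 below, against 30.7% of all genes (16.5% above and 14.2% below).

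Ctsw was at 22.4, 14.5 and 9.84 CPM in untreated cells and 180, 176 and 126 with TGFb1, so that each treated library was above each untreated one (log2 change 3.35 ± 0.33 SE, 10.2-fold, adjusted p = 0.0034). Its group means ran from 2.63 CPM in Wisp1 cells on collagen to 161 with TGFb1. The T and NK cell markers had 0 counts in the TGFb1 libraries. Gpnmb was at 24.9, 21.5 and 17.6 CPM in untreated cells and 8.14, 5.49 and 3.24 with TGFb1 (log2 change −1.94 ± 0.35, adjusted p = 0.018), without overlap. Cd63 was at 345, 354 and 314 CPM untreated and 441, 475 and 464 with TGFb1 (log2 change 0.43 ± 0.088, adjusted p = 0.027), again without overlap. The call of Cd63 ended without untreated replicate 1 (adjusted p = 0.062), 2 (0.1) or 3 (0.082) and without TGFb1 replicate 2 (0.11) or 3 (0.073). That of Gpnmb ended without untreated replicate 1 (adjusted p = 0.051) or 2 (0.08) and without TGFb1 replicate 2 (0.091). These losses were in the fit of groups only. In the edgeR fit with the culture pairs described below, Cd63 (adjusted p = 0.0012) and Gpnmb (0.00017) were both called.

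The sample titles give the untreated and TGFb1 cultures of each replicate number a shared code, and these cultures deviated together. A fit with those pairs as a block called 22 of 34 members (64.7%), 16 higher and 6 lower, against 44.9% of all genes (22.4% higher and 22.5% lower). Each of the 22 moved the same way in 3 of 3 pairs. Among cysteine cathepsins, Ctsl was at 1760, 1720 and 920 CPM in untreated cells and 752, 809 and 597 with TGFb1. Untreated replicate 3 stood far below the other 2, and the groups did not overlap (log2 change −1.04 ± 0.26, adjusted p = 0.053 without the pairs and 0.0011 with them). With the pairs, Ctsh (log2 change −0.29) and Ctsz (−0.21) fell and Ctsc (0.47) and Ctso (0.23) rose, while Ctsb was not called (−0.16, adjusted p = 0.056). Cystatin C (Cst3), an inhibitor of these proteases, fell 1.4-fold without the pairs, from 153 ± 16 to 111 ± 9.2 CPM. Other inhibitor genes went up, with Cstb at 157 and 252 CPM and Serpinb6a at 256 and 320 (group means). Of 5 tested, 2 changed upward and 3 downward, and 1 was called without the pairs, against 11.1% of all genes. With the pairs 2 rose and 2 fell, against 44.9%. Csta, 1 of the 5, reached the test through untreated cells alone (13 to 18 counts, and 5 to 11 with TGFb1).

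Of the 7 genes of lipid degradation and transport, 5 rose and 2 fell in the paired fit, where 44.9% of all genes were called. Npc1 was at 14.4, 23.9 and 23.6 CPM in untreated cells and 20.4, 37.2 and 36.8 with TGFb1, overlapping between groups but higher in each pair (log2 change 0.58 ± 0.068, adjusted p = 0.00066). Lipa was at 23.6, 27.3 and 36.2 CPM untreated and 37.1, 49.7 and 46.1 with TGFb1 (log2 change 0.60 ± 0.1, adjusted p = 0.0031). Psap, Npc2 and Smpd1 rose by 0.23, 0.19 and 0.27 on the log2 scale, whereas the thioesterase gene Ppt1 (−0.34) and the ceramidase gene Asah1 (−0.26) fell. Of the glycosidases, Gla had 10.1, 8.87 and 7.92 CPM untreated and 12.3, 16.3 and 13.3 with TGFb1 (log2 change 0.62 ± 0.13, adjusted p = 0.0077), and Neu1 and Man2b1 rose by 0.35 and 0.30. Hexa, Glb1, Gaa, Gusb and Manba were not called, with log2 changes between −0.05 and 0.07.

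Of the 8 membrane protein genes, 4 rose in that fit (Cd63, Mcoln1, Scarb2, Lamp2) and Gpnmb fell, against 44.9% of all genes called. Mcoln1 had 34.1, 41.1 and 39.7 CPM in untreated cells and 41.9, 62.5 and 58.9 with TGFb1 (log2 change 0.48 ± 0.079, adjusted p = 0.0029). Scarb2 had 27.3, 23.4 and 26.6 CPM untreated and 33.7, 35.7 and 35.8 with TGFb1 (0.43 ± 0.078, adjusted p = 0.0043), and Lamp2 185, 188 and 184 CPM untreated and 219, 244 and 266 with TGFb1 (0.37 ± 0.067, adjusted p = 0.0043). Tpp1 rose by 0.39 on the log2 scale, and Ctsd, Ctsa, Lamp1, Cln3, Cd68 and Tfeb were not called. Cd68 and Tfeb followed the replicate number more than the treatment: Cd68 was at 11.5, 8.16 and 3.07 CPM in untreated cells and 10.5, 9.29 and 3.98 with TGFb1, and Tfeb at 6.12, 5.58 and 2.93 untreated and 6.03, 5.27 and 2.15 with TGFb1, lowest in replicate 3 of each group.

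**Figure D5:**
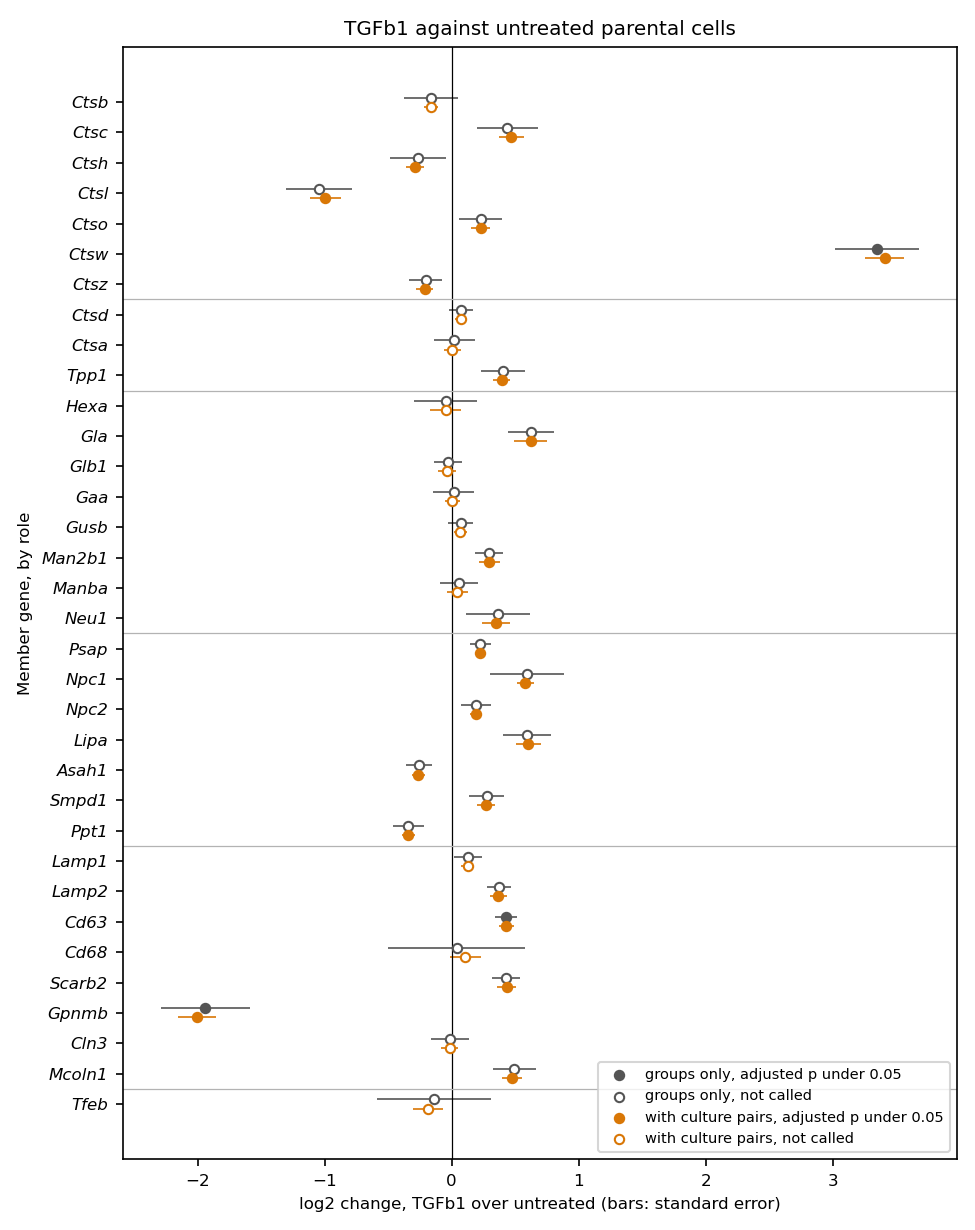
Log2 change with TGFb1 over untreated cells (x axis) for 34 members, with bars for the standard error, from the fit of groups only (grey) and with culture pairs as a block (orange); filled points have an adjusted p under 0.05. The changes are nearly the same in both fits while the bars are shorter with the pairs, where 22 members are called instead of 3.

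Beyond the members, lists of other lysosomal genes were read first in the fit without pairs, where 11.1% of all genes were called. In it TGFb1 raised 4 of 17 V-ATPase genes (median log2 change of the list 0.24), with Atp6v1e1 1.99-fold, Atp6v1g1 2.78-fold and Atp6v0d1 1.58-fold higher. Of 17 further lysosomal membrane proteins tested, 4 rose, among them the sialic acid exporter gene Slc17a5 1.74-fold and the chloride exchanger gene Clcn7 1.45-fold, and the two-pore channel gene Tpcn1 fell 2.94-fold (median 0.05). Lgmn was the 1 called of 27 other hydrolases (1.55-fold higher, median 0.08), and 0 of 14 MiT/TFE and mTORC1 genes (0.03) and 0 of 9 sorting genes (0.03) were called by edgeR in that fit, with 1 and 2 at an unadjusted p under 0.05. With the pairs, where 44.9% of all genes were called, 9 V-ATPase genes rose and 2 fell, 9 further hydrolases rose and 3 fell, 7 membrane proteins rose and 3 fell, 2 MiT/TFE and mTORC1 genes rose and 1 fell, and 1 sorting gene rose and 1 fell. Among the 12 leukocyte and macrophage markers, Csf1r had 7 to 25 counts in untreated libraries and 150 to 231 with TGFb1, Fcgr3 2 to 5 and 36 to 127, Fcer1g 1 to 3 and 13 to 41, and Ptprc 46 to 59 and 8 to 19. Markers this low reached the test through the group where they are high, so no count of calls is given for them. Emr1 and Laptm5 had 0 counts with TGFb1. The summed level of the 12 was 8.71 to 15 CPM in untreated cells and 14.7 to 21.1 with TGFb1, most of it Cd14, and without Cd14 it was 0.943 to 1.29 and 3.08 to 4.41.

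The next comparison was between the Wisp1 and EV lines on each substrate. On plastic 0 of 35 members were called by edgeR, against 0.0143% of all genes tested, with a median log2 change of −0.02 against 0.00 for all genes. Groups did not overlap for 2 members above and 3 below, against 12.5% of all genes (6.5% above and 5.98% below). An unadjusted p under 0.05 was found for 3 members (5.89% of all genes), and DESeq2 and limma-voom called 0. The 3 were Ctss (1.16, 0.805 and 1.08 CPM in EV and 1.77, 2.57 and 1.28 in Wisp1 cells, log2 change 0.88 ± 0.24, unadjusted p = 0.0028, adjusted p = 0.63), Ctsc (log2 change −0.17 ± 0.048, adjusted p = 0.68) and Manba (−0.17 ± 0.072, adjusted p = 0.81). With EV and Wisp1 cultures of the same number as pairs within each substrate, Ctsc fell by 0.16 on the log2 scale (1.12-fold, adjusted p = 0.038), the 1 member among 3.15% of all genes called.

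On collagen 0 of 35 members were called by edgeR as well, against 0.0717% of all genes (0.043% higher and 0.0287% lower), with a median log2 change of 0.07 against 0.00. Groups did not overlap for 5 members, all above, against 9.42% of all genes (5.51% above and 3.91% below). Again 3 had an unadjusted p under 0.05 (5.07% of all genes), and DESeq2 and limma-voom called 0. Ctsb was at 298, 300 and 282 CPM in EV and 354, 318 and 317 in Wisp1 cells, without overlap (log2 change 0.17 ± 0.046, adjusted p = 0.54). Hexa (log2 change 0.22 ± 0.083, adjusted p = 0.9) and Manba (0.17 ± 0.07, adjusted p = 0.91) were the others. With pairs within each substrate Ctsb rose 1.12-fold (adjusted p = 0.0044), the 1 member among 2.57% of all genes called. In the 7 lists of other lysosomal and autophagy genes 0 were called in either comparison, and list medians lay between −0.04 and 0.05.

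Whether the substrate changed the Wisp1 effect was tested as an interaction, and 0 of 35 members were called by edgeR, against 0% of all genes. An unadjusted p under 0.05 was found for 3 members (2.94% of all genes), namely Manba (log2 difference 0.34 ± 0.1), Ctss (−1.09 ± 0.32) and Ctsc (0.22 ± 0.068), each with an adjusted p of 0.97. DESeq2 and limma-voom called 0 members, and so did the fit with pairs within each substrate, in which 0.502% of all genes were called.

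EV cells on plastic were set beside untreated parental cells to place the levels of the 2 experiments. Most lysosomal genes were lower in EV, and 3 were higher. Of 35 tested members 26 were called, 3 higher and 23 lower, against 43.4% of all 14476 genes (19.5% higher and 23.8% lower). The median log2 change was −0.57 against −0.05 for all genes, and groups did not overlap for 5 members above and 24 below, against 57.7% of all genes (28.8% above and 28.9% below). Ctss is among the 3 called higher and the 5 above, though it reached the test through EV alone, so its part in these counts follows from the filter. Line, vector, selection, medium change and library series differ together here and cannot be told apart.

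Ctsd was at 419, 466 and 428 CPM in untreated cells against 183, 185 and 182 in EV, 2.42-fold lower (adjusted p = 0.00022). Among cysteine cathepsins, Ctso was 3.25-fold lower (23.8, 26.7 and 20.1 CPM untreated), Ctsh 2.45-fold (226, 212 and 165), Ctsl 1.79-fold and Ctsb 1.62-fold (411, 437 and 291). Ctss went the other way: untreated libraries had 0, 0 and 2 counts and EV libraries 48, 62 and 56, a ratio of 119 with a 95% interval of 32.4 to 989 that covers counting error only. TGFb1 libraries had 3, 4 and 3 counts of Ctss. Ctss reached the test through EV alone, so its call follows from the filter. The same holds for several leukocyte and macrophage markers, which are given as counts: Lyz2 had 0 to 6 in untreated and 200 to 232 in EV libraries, Laptm5 0 to 1 and 17 to 33, Emr1 0 to 1 and 15 to 23, and Tyrobp 0 and 9 to 19. Without Cd14, the sum over the 11 was 0.943 to 1.29 CPM in untreated cells and 5.63 to 8.02 in EV. Their part in the level of Ctss was not tested.

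Hexa was at 2.48, 2.1 and 2.95 CPM in untreated cells, with EV 2.07-fold higher (adjusted p = 0.0043), and Gusb at 154, 143 and 138, with EV 1.2-fold higher (adjusted p = 0.018). The remaining called glycosidases were lower in EV: Neu1 2.03-fold (17.2, 24 and 26.2 CPM untreated), Gaa 1.85-fold (88.7, 112 and 97), Glb1 1.51-fold (67.8, 70.6 and 71.8), Man2b1 1.48-fold (73.8, 63.9 and 77.2) and Manba 1.32-fold (34.2, 33.4 and 30.8). Gpnmb was 3.73-fold lower (adjusted p = 0.00089), Mcoln1 1.83-fold, Cln3 1.8-fold (33.1, 42.1 and 38.7 CPM untreated), Lamp1 1.3-fold (624, 690 and 722) and Lamp2 1.26-fold. Of the lipid genes, Smpd1 was 1.82-fold lower (21.8, 25.2 and 25.3 CPM untreated), Ppt1 1.72-fold (76.4, 93.2 and 81.3), Asah1 1.53-fold (229, 249 and 232), Npc2 1.48-fold (229, 288 and 257), Lipa 1.4-fold and Psap 1.38-fold (499, 519 and 547). Ctsa and Tpp1, with 90.3, 103 and 85.1 and 39.9, 50.6 and 45.6 CPM in untreated cells, were 1.85-fold and 1.58-fold lower.

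Members that were not called here were Ctsc, Ctsw, Ctsz, Gla, Npc1, Cd63, Cd68, Scarb2 and Tfeb. Ctsw had nearly the same mean in both groups (15.6 ± 6.3 CPM untreated and 15.6 ± 6.8 in EV, mean ± SD). The calls of Ctsl, Gusb, Manba, Lipa and Lamp2 each ended without some single library. Ctsl reached an adjusted p of 0.082 without untreated replicate 2 and 0.071, 0.072 and 0.072 without EV replicates 1, 2 and 3. For Gusb it was 0.06 without untreated replicate 2 and 0.07, 0.062 and 0.07 without EV replicates 1, 2 and 3, and for Manba 0.081 without untreated replicate 2 and 0.11 without EV replicate 1 or 3. Lipa reached 0.094 and 0.062 without untreated replicates 2 and 3 and 0.12, 0.11 and 0.16 without EV replicates 1, 2 and 3, and Lamp2 0.056 and 0.054 without EV replicates 1 and 3. Lipa was also lost with RLE scaling (adjusted p = 0.054), limma-voom (0.074) and the replicate block (0.085).

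Lists of other lysosomal genes read against the same 43.4%. Of 26 hydrolases and activators 17 were called, all lower (median log2 change −0.62), among them Acp5 2.14-fold and Arsa 2.73-fold. Of 17 V-ATPase genes 8 were lower and 1 higher (−0.27), and of 18 membrane proteins 9 were lower and 1 higher (−0.25). Of 9 sorting genes 3 were lower and 3 higher (0.11), and of 14 MiT/TFE and mTORC1 genes 4 were lower and 1 higher (−0.16). Of 5 cathepsin inhibitors 3 were lower and 1 higher (−1.07). The 1 higher membrane protein gene was Laptm5, which reached the test through EV alone (0 to 1 counts untreated, 17 to 33 in EV). Among the 3 lower inhibitors, Csta reached the test through untreated cells alone (13 to 18 counts untreated, 1 to 7 in EV). Both calls follow from the filter.

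Exons of some members overlap those of neighbouring genes in GENCODE M21, and the strand setting of the counting is not given in the sources used here, so their counts are less certain. The overlap covers 31.5% of exon bases for Ctsd (with the read-through model Gm49369 on the same strand), 28.2% for Ctsl, 22.3% for Ctsa, 16.3% for Ctsb (with Fdft1 on the opposite strand), 13.2% for Cln3, 7.94% for Lamp1, 6.89% for Glb1 and 5.4% for Npc1.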

How the data were processed

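Poly(A) RNA of 18 libraries (6 groups of 3 cultures) was sequenced with a stranded kit, per the labels' protocols. The deposited files give the authors' read counts per gene, not normalized. Per the submitters' processing notes, the tools were HTSeq, STAR, BWA, CASAVA, R 3.2.4 and limma, on build mm9, with no roles stated. The annotation and strand setting were not given in the sources used here. The 5 summary entries per file were left out.

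Genes were tested with edgeR 4.0.16 (R 4.3.3; filterByExpr, TMM scaling, robust quasi-likelihood F test), with Benjamini-Hochberg adjustment over all genes of a comparison and calls at an adjusted p under 0.05. The parental libraries, the 12 stable-line libraries, and EV on plastic with untreated cells were fitted separately, over 7 comparisons. SE is the log2 change divided by the square root of F. Printed CPM were TMM-scaled over all 18 libraries. Alternatives were DESeq2 1.42.0, limma-voom (limma 3.58.1), RLE scaling, other filters, other sets of libraries, replicate blocks and leaving out each library. The code was tested on simulated counts. Replicates of a group differed by more than sampling noise (chi-square per degree of freedom 3.135 to 197.6), so none was counted as a repeat deposit.

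Replicate numbers paired libraries where every same-numbered pair correlated above 0.1. This held for TGFb1 with untreated (0.84, 0.71 and 0.81) and for Wisp1 with EV on plastic (0.25, 0.39 and 0.41) and on collagen (0.69, 0.35 and 0.52). For TGFb1 with untreated, the sample titles also carry a shared code within each pair, and the main TGFb1 test left this pairing out.

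Members and lists were chosen with earlier results of these data known, and the T and NK cell list was added after the files had been seen, as was the reading of the other gene lists in the paired TGFb1 fit. By rule, every member is accounted for by role, with library values where it was called, or the smallest p-values where none was. Reference files (GENCODE M21, RefSeq GRCm38.p6) served for exon lengths, exon overlap and promoters.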

Additional observations from a re-analysis of the deposited data

How the results depend on the processing

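The number of members called with TGFb1 depended most on the processing. The share of all genes called, given in brackets, moved as well. Against 3 [11.1%], it was 9 with DESeq2 [19.6%], 5 with the stricter filter [12.2%] and 22 with the replicate block of culture pairs [44.9%]. It was 17 with all 18 libraries in one fit [32.4%], and ran from 1 to 5 when each library was left out in turn [2.5% to 9.41%]. Only Ctsw was called under each of the 13 alternatives. On collagen against plastic, the fit of all 18 libraries called 14 members in EV [10.8%] and 15 in Wisp1 cells [13.8%], against 25 [36.5%] and 30 [40.4%]. Leaving out each library gave 23 to 26 [27.3% to 32.6%] and 27 to 29 [31.5% to 38.5%]. Pairing by replicate block within each line gave 26 [34.9%] and 29 [38.9%]. For Wisp1 against EV, the replicate block within each substrate called 1 member on plastic [3.15%] and 1 on collagen [2.57%]. Against untreated cells, EV on plastic had 21 to 30 members called when each library was left out in turn [24.9% to 57.9%]. No value of a member or a median that was called changed its sign under an alternative. Numbers of EV and untreated cultures, and of plastic and collagen cultures of a line, did not pair the samples.

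The search of promoters for the full palindromic CLEAR element (a binding site described for TFEB) was not run. Ctsf was not detectable beyond 2 counts per library, and Ctss in parental cells rested on 0 to 4.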

Other observations

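Autophagy genes, which deliver cargo to the lysosome, were read beside the members, with the share of all genes called in brackets. On collagen 8 of 20 rose and 2 fell in EV (median log2 change 0.13) [36.5%], and 9 rose and 3 fell in Wisp1 cells (0.14) [40.4%], with Wipi1, a phosphoinositide-binding autophagy protein, 1.33-fold and 1.41-fold higher. With TGFb1, 3 of 20 were higher without the culture pairs (0.28) [11.1%], namely Wipi1, Sqstm1 and Map1lc3b, and 12 with them [44.9%]. In EV on plastic 14 of 20 were lower than in untreated cells (−0.50) [43.4%].

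Of 8 fibroblast markers, 5 could be tested with TGFb1. Without the culture pairs 2 of them, Pdgfrb and Col1a1, were called higher, against 11.1% of all genes called. The summed level of the 8 was 49.7 CPM in untreated cells, 64.4 with TGFb1, 20.1 and 18.1 in EV and Wisp1 on plastic, and 27.8 and 29.3 on collagen (group means), most of it Pdgfra. Without Pdgfra it was 1.72, 11.9, 2.15, 1.55, 1.47 and 0.703 CPM in the same order. On collagen 1 of 4 tested fibroblast markers rose and 2 fell in EV (36.5% of all genes called), and 1 rose and 1 fell in Wisp1 cells (40.4%). The 5 endothelial markers summed to 0.113 to 0.404 CPM (group means). Of the 6 epithelial markers, 2 rose and 2 fell on collagen in EV (36.5% of all genes called), and 2 rose and 1 fell in Wisp1 cells (40.4%). With TGFb1, edgeR called 0 without the culture pairs (11.1% of all genes), where 2 had an unadjusted p under 0.05 (24.9%). With the pairs it called 4 lower (44.9% of all genes called in either direction).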
